A study of Mus musculus with 11 samples.

Results

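Mouse mammary carcinoma cells that lost HER2 during trastuzumab exposure were compared, across all genes, with cells of another line that kept HER2 under the same drug schedules. The members were 4 of the 11 libraries of the series, namely 2 libraries of trastuzumab-exposed MamBo43 (labelled HER2 labile) and 2 of trastuzumab-exposed MamBo89 (labelled HER2 stable), chosen by line and treatment in the sample labels. In each line, 1 culture had been kept in trastuzumab at 30 µg/ml for 60 days, and the other for 30 days and then for 30 days without the antibody (drug-off). One untreated library of each line marked the differences that stood before exposure. All 6 libraries carry the same code in their labels, so that code does not separate the lines. Untreated and exposed cells of both lines carry the human HER2 transgene of FVBhuHER2 mice, and were grown in the same serum-rich medium. MamBo89 and MamBo43 came from 2 different transgenic tumors, each line standing for 1 tumor, so the loss of HER2 and the tumor of origin cannot be told apart in the comparison of exposed cells.

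HER2 is a receptor tyrosine kinase without a ligand of its own, which signals by pairing with other ErbB receptors, above all ErbB3, and trastuzumab is an antibody against its extracellular part. Epithelial cells are held together by cadherin junctions, desmosomes and tight junctions. In epithelial-mesenchymal transition (EMT), transcription factors of the Zeb, Snai and Twist families are known to repress such junction genes, while cells take on vimentin, fibronectin and other mesenchymal products.

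Total counts of the 4 exposed libraries ranged from 17040454 to 26853067, and those of the 2 untreated libraries were 26212551 for MamBo43 and 22295814 for MamBo89. Levels are given as CPM, the usual per-library scaling of counts, with library sizes corrected by the TMM method, and 3 counts, taken as the detection floor, correspond to between 0.115 and 0.175 CPM. The counts list mouse genes, so the human transgene itself, and with it the label of HER2 loss, could not be checked in them. Among markers fixed for other cell types, Ptprc, the pan-leukocyte antigen CD45, was at 0 in all 4 exposed libraries, whereas fibroblast markers were high in exposed MamBo43 and are given beside the matrix genes. The 10 luminal epithelial markers summed to 3151 and 3682 CPM in exposed MamBo89, and to 1865 CPM in the drug-off and 313 CPM in the 60-day MamBo43 library. Untreated MamBo43 and MamBo89 stood at 3943 and 3989.6 CPM, so both lines expressed these markers before exposure, and their sum was low in the 60-day MamBo43 culture. Of the 9 markers tested as described below, 5 were lower in exposed MamBo43, 0 higher and 4 neither. In bulk cultures, fewer cells of a type and less RNA per cell cannot be told apart, and the study describes a minority of polygonal, HER2-positive cells that persisted in exposed MamBo43.

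Exposed MamBo43 and exposed MamBo89 differed in a large part of their transcriptome. Of 12686 genes tested with edgeR's quasi-likelihood test, 5156 (40.6%) passed an adjusted p under 0.1 together with a difference of at least 2-fold and are termed called, 2456 (19.4%) higher and 2700 (21.3%) lower in MamBo43. Of the called genes, 4209 (81.6%) differed by at least 2-fold in the same direction within both schedules, 745 only between the 60-day libraries and 201 only between the drug-off libraries. The libraries of the 2 lines did not overlap at 10446 genes (82.3%). The share of a gene list that was called, or that did not overlap, has to be read against these percentages.

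Exposed MamBo43 stood far from its untreated library, and exposed MamBo89 close to its own. The count covered 10657 tested genes with a mean of at least 5 CPM in either exposed group, so genes on only in an untreated library were left out. In exposed MamBo43 (mean of both libraries), 3327 of them stood at least 2-fold away from the untreated level, 1541 above and 1786 below. In exposed MamBo89 the number was 126, with 28 above and 98 below. Each of these counts rests on 1 untreated library and has no test. The drug-off MamBo89 library differed from untreated MamBo89 by at least 2-fold at 54 of 9941 genes, and the 60-day library at 184 of 10016. The corresponding counts for MamBo43 were 3124 of 10590 and 3837 of 10655. Against another untreated MamBo89 library, labelled AG3 and taken up below, the drug-off and 60-day MamBo89 libraries differed at 1677 of 10261 and 2179 of 10328 genes.

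The untreated libraries showed which differences between the exposed lines were already there. Untreated MamBo43 and MamBo89 differed by at least 2-fold at 3292 genes (25.9% of those tested), 1714 (13.5%) higher and 1578 (12.4%) lower in MamBo43. Called genes were therefore placed in 3 classes. A difference was termed prior for the 2002 genes (38.8%) that already differed by 2-fold in the same direction untreated, and termed arising for the 2843 (55.1%) that had differed by less than 2-fold. The other 311 (6.03%) had differed by at least 2-fold the opposite way and turned. The exposed and the untreated comparison share no library, and across the 12686 genes their log2 differences had a Pearson's r of 0.618, given as a description since genes are not independent. These classes rest on 1 untreated library of each line. Another untreated MamBo89 library, labelled AG3, was also put in place of the first. The labels do not describe it, but the study lists a HER2-positive MamBo89 clone, and AG3 is the only label left for that. AG3 differed from the first untreated MamBo89 library by at least 2-fold at 1702 of 10281 genes. With AG3, 1461 of the 5156 called genes (28.3%) fell into another class, and so did 47 of 167 named ones. Among them, Zeb1, Zeb2, Met and Nrg1 went from prior to arising, and Fn1, Vim and Kit from arising to turned. Of the 2843 arising genes, 1944 had moved by at least 2-fold in MamBo43 alone, 10 in MamBo89 alone, 22 in both and 867 in neither.

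**Figure D1:**
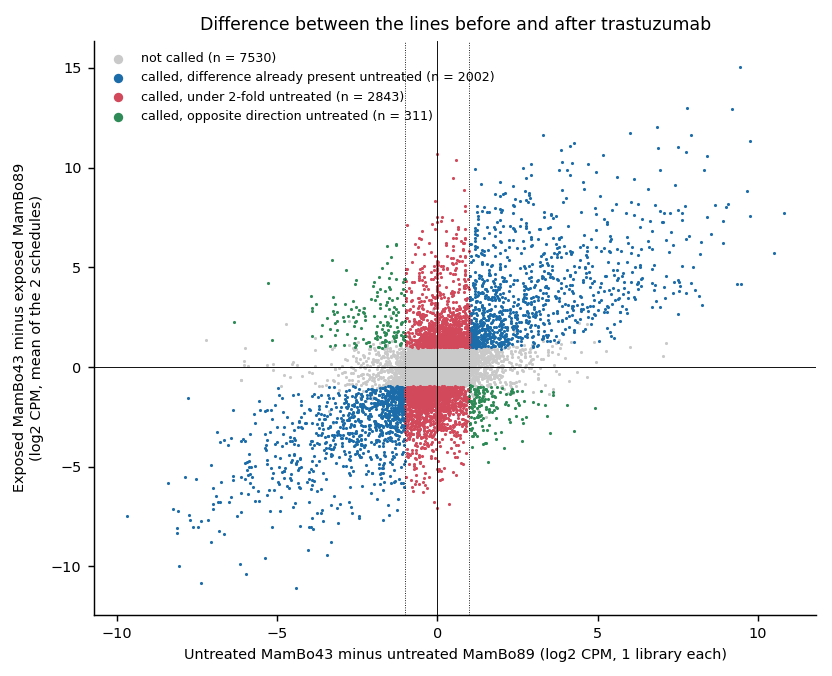
Each point is 1 of 12686 tested genes, with the log2 CPM difference of the untreated libraries (MamBo43 minus MamBo89, 1 library each) on the x axis and that of the exposed libraries (mean of the 2 schedules) on the y axis. Colours give the class of the 5156 called genes, and dotted lines mark the 2-fold untreated difference; the 2843 arising genes fill the band between them and 311 turned genes lie in the opposite quadrants.

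A direct test of the difference between the lines beyond the untreated difference used the 6 libraries in one model, with each untreated library assumed to vary as the exposed pairs do, and since it uses the exposed libraries again it is not independent of the comparison above. It called 2380 of 13437 genes (17.7%), 1169 (8.7%) higher and 1211 (9.01%) lower in MamBo43. This count depended on single libraries and ranged from 423 without the 60-day MamBo89 library to 3751 without the drug-off MamBo43 library, and it was 1184 without the drug-off MamBo89 library. At 76 genes both untreated libraries had 0 counts, so the contrast could not be estimated and none was called, although 39 of them were called between the exposed lines. The test is given below as the interaction.

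ErbB receptors and their partners came first, as the drug's target family. Mouse Erbb2, the counterpart of the human transgene (chr11:98412470-98437716 on GRCm38, plus strand), stood at 19.9 CPM in the 60-day and 31.6 CPM in the drug-off MamBo43 library, and at 165 and 134 CPM in the MamBo89 libraries. Untreated MamBo43 and MamBo89 were alike at 117 and 155 CPM, so the low level was seen in exposed MamBo43 only among these 6 libraries. The fold change was -2.54 on the log2 scale (SE 0.27, adjusted p = 0.00176, edgeR), and the interaction was -2.12 (SE 0.45, adjusted p = 0.0515). Erbb3, the kinase-impaired partner of HER2, gave 6.83 and 23.9 CPM in exposed MamBo43 against 137 and 114 CPM in exposed MamBo89. Its untreated levels were 128 and 134 CPM, and it was lower in exposed MamBo43 by a log2 fold change of -3.05 (SE 0.59, adjusted p = 0.00905), while its interaction missed the threshold (-2.96, adjusted p = 0.108).

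Egfr, the receptor for EGF, amphiregulin and related ligands, ran the other way between the lines. It measured 55.0 and 34.4 CPM in exposed MamBo43 and 20.1 and 17.8 CPM in exposed MamBo89 (log2 fold change 1.23, SE 0.27, adjusted p = 0.013). The untreated level of MamBo43, 103 CPM against 21.9 CPM in untreated MamBo89, was higher still, so this difference was prior and narrower after exposure. Without the 60-day MamBo43 library Egfr was no longer called. Erbb4 was at 0 in both exposed MamBo43 libraries and at no more than 0.272 CPM in MamBo89, and was not tested.

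Of 20 ErbB signal partners and inhibitors, 7 were lower and 3 higher in exposed MamBo43, and 6 of the 7 lower ones arose. Grb7, an adaptor whose gene is a neighbour of Erbb2, stood at 2.11 and 4.80 CPM against 29.0 and 20.9 CPM, with untreated levels of 20.9 and 19.5 CPM. Dusp6, a phosphatase that is itself switched on by ERK signalling, gave 108 and 107 CPM against 463 and 522 CPM. Both groups of libraries were apart for both genes, with log2 fold changes of -2.87 (adjusted p = 0.00479) and -2.20 (adjusted p = 0.000702). Pak1, a kinase downstream of Rac, was also lower (-2.39), while Rnf41, a ubiquitin ligase known to act on ErbB3, was higher in exposed MamBo43 at 94.2 and 93.7 CPM against 29.1 and 34.0 CPM, and likewise arose. Lrig3, a relative of the ErbB inhibitor Lrig1, and Spry1, a brake on receptor signalling, were higher by log2 fold changes of 3.84 and 3.12, both prior.

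Among 10 ErbB ligands tested, 2 were higher and 3 lower. The lower count was 2 at an adjusted p under 0.05 and changed when single libraries were left out. Ereg (epiregulin) was at 71.3 and 45.9 CPM in exposed MamBo43 and at 0.0544 and 0 CPM in exposed MamBo89, with 2.15 CPM in untreated MamBo43. Nrg1 (neuregulin, a ligand of ErbB3) measured 37.9 and 17.1 CPM against 1.09 and 2.74 CPM. Both differences were prior, so exposed MamBo43 carried more neuregulin and less of its receptor than exposed MamBo89. Tgfa, a ligand of Egfr, was lower by a log2 fold change of -3.15, and Areg could not be placed, since it differed more between schedules than between lines (10.4 and 127 CPM in MamBo43, 19.0 and 142 CPM in MamBo89).

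Receptor tyrosine kinases outside the ErbB family differed in both directions, and most of the higher ones were prior. Of 32 tested, 10 were higher and 16 lower in exposed MamBo43. Of the 10 higher ones, 8 had been at least 2-fold higher in the untreated line and 1 arose. Of the 16 lower ones, 5 were prior and 10 arose. Over all called genes, 42.1% of the higher ones were prior, while 35.8% of the lower ones were prior and 58.4% arose. The lower kinases were thus near the shares of all lower calls. The median log2 fold change of the list was -0.9, against -0.02 over all genes tested.

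Pdgfrb, a platelet-derived growth factor receptor typical of mesenchymal cells, gave 293 and 298 CPM in exposed MamBo43 and 0.109 and 0 CPM in exposed MamBo89. Untreated MamBo43 already held 50.9 CPM and untreated MamBo89 0.184 CPM. The gene was thus on in one line and just above the floor in the other before exposure. The interaction was 4.16 (SE 1.10, adjusted p = 0.0764), a further gap on top of the prior one. Ddr2, a receptor for fibrillar collagen, stood at 683 and 473 CPM against 0.0544 and 0.117 CPM, with untreated levels of 4.03 and 0.322 CPM and an interaction of 9.03 (SE 0.95, adjusted p = 0.0168). The AG3 library held 9.20 CPM of Ddr2, more than untreated MamBo43, so against it the difference was not prior but turned. Ror2, a receptor for Wnt5a, was at 20.3 and 15.3 CPM against 0 counts in both MamBo89 libraries, which makes it at least 105-fold higher against a floor of 3 counts per library.

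Axl and Met, both discussed as bypass receptors in drug resistance, were prior as well. Axl was at 268 and 269.7 CPM in exposed MamBo43, 35.1 and 10 CPM in exposed MamBo89, and 326 CPM in untreated MamBo43. Met was at 86.2 and 88.7 CPM against 14.0 and 24.6 CPM, with 126 CPM in untreated MamBo43. For neither gene did exposed MamBo43 lie above its own untreated library. Pdgfra was the one higher kinase that arose, at 146 CPM in both exposed MamBo43 libraries against 64.6 and 35.2 CPM (log2 fold change 1.54, SE 0.30, adjusted p = 0.0099).

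Kit, the stem cell factor receptor found on luminal progenitors, measured 16.9 and 11.9 CPM in exposed MamBo43 and 313 and 329 CPM in exposed MamBo89, while the untreated lines held 239 and 352 CPM. The libraries of the exposed lines did not come near each other (log2 fold change -4.48, SE 0.23, adjusted p = 0.000392), and the interaction was -3.91 (adjusted p = 0.0126). Igf1r, the insulin-like growth factor receptor, was lower by -1.09 (adjusted p = 0.00362) at 86.3 and 100.2 CPM against 200.1 and 195 CPM, and Irs1, the adaptor below it, by -2.19 (adjusted p = 0.000987). Fgfr3 was lower by -5.55 and Ret by -5.68, both prior.

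**Figure D2:**
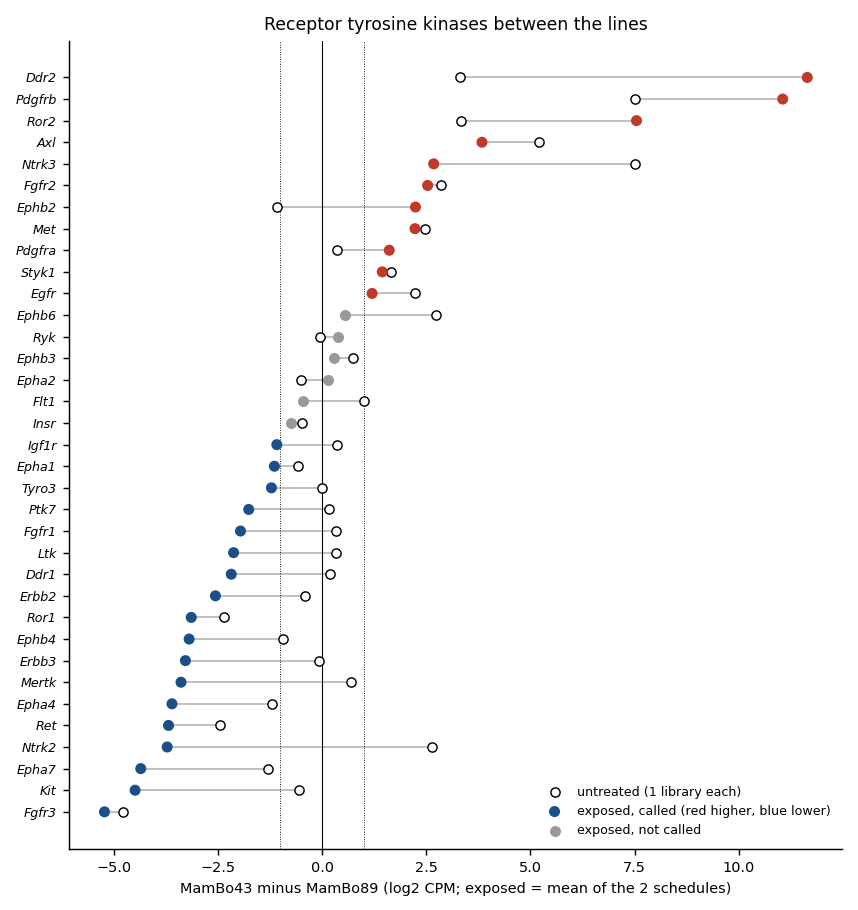
Rows are the 35 tested receptor tyrosine kinases, ErbB receptors included, and the x axis is the log2 CPM difference MamBo43 minus MamBo89. Open circles are the untreated libraries (1 each) and filled circles the exposed libraries (mean of the 2 schedules), red for called higher, blue for called lower and grey for not called; most red points have an open circle right of the dotted 2-fold line, and most blue ones an open circle near 0.

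Epithelial genes were lower in exposed MamBo43, and most of these differences had been under 2-fold in the untreated lines. Of 31 junction and surface genes, 22 were lower and 1 higher, of which 19 of the lower ones arose, with a median log2 fold change of -1.92. Of 18 epithelial transcription and splicing factors, 12 were lower and 1 higher, with a median of -2.29, and 9 of the 12 arose. The count of lower junction genes was 14 without the 60-day MamBo89 library and 27 without the drug-off MamBo43 library.

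Cdh1 (E-cadherin, the core of the adherens junction) measured 72.1 and 201 CPM in exposed MamBo43 against 825 and 1084 CPM in exposed MamBo89, with 774 and 1034 CPM untreated. Its log2 fold change was -2.81 (SE 0.51, adjusted p = 0.00766) and its interaction -2.38 (adjusted p = 0.127), short of the threshold. Epcam, an epithelial adhesion molecule, was at 30.8 and 158 CPM against 711 and 585 CPM (-2.78, SE 0.75, adjusted p = 0.0259). In both genes the 60-day MamBo43 library was the lower of its pair and no MamBo43 library reached a MamBo89 one. Jup (plakoglobin, shared by adherens junctions and desmosomes) showed less spread, at 41.0 and 80.1 CPM against 579.9 and 588 CPM, and passed both tests (log2 fold change -3.28, adjusted p = 0.00177; interaction -2.85, adjusted p = 0.0463). Prss8, a membrane protease of tight epithelia, was lower by -3.67, and Cdh3 (P-cadherin) was the one member that was higher, at 11.4 and 0.980 CPM against 0 and 0.0583 CPM.

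Factors that hold the epithelial state were low to unequal degrees. Esrp2, an epithelial splicing regulator, stood at 4.18 and 9.65 CPM against 54.2 and 55.7 CPM (log2 fold change -3.00, SE 0.41, adjusted p = 0.00328). Its paralog Esrp1 was not called, with 82.3 and 350.2 CPM against 316 and 401 CPM (-0.73, adjusted p = 0.366), the drug-off MamBo43 library lying within the range of MamBo89. Grhl2, a grainyhead factor that activates junction genes, gave 10.6 and 30.4 CPM against 169.8 and 169 CPM (-3.05, adjusted p = 0.00561), and Ovol2, which represses Zeb1, 0.729 and 1.08 CPM against 6.75 and 4.31 CPM (-2.62, adjusted p = 0.00583). Trp63, the basal epithelial p53 relative, was the only member called higher, at 41.0 and 34.3 CPM against 7.51 and 7.40 CPM.

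Epithelial genes of exposed MamBo43 did not share 1 remaining level. Among 28 junction genes at 20 CPM or more in untreated MamBo43, the median level left was 9.12% of untreated in the 60-day library and 29.8% in the drug-off library, and 27 of the 28 were higher in the drug-off library. Within the drug-off library the remaining level ran from 7.31% for Tjp3 to 84.8% for Pkp2, and among 16 transcription and splicing factors from 0.468% for Elf5 to 152% for Trp63. Of the keratins, 84.2% of Krt18 and 73.3% of Krt8, the simple epithelial keratin pair, were left there, within the range of the junction genes, and 247% of Krt7. In the 60-day library Krt18 and Krt8 were both at 10.1%. Exposed MamBo89 kept a median of 92.2% and 92.0% of its untreated level over 25 junction genes, and 1 of them, Dsc2 at 46.2% in the 60-day library, was under 50%. These shares are CPM ratios to 1 untreated library each, with no test, and Tjp3, Pkp2 and Dsc2 were singled out after their values were seen.

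**Figure D3:**
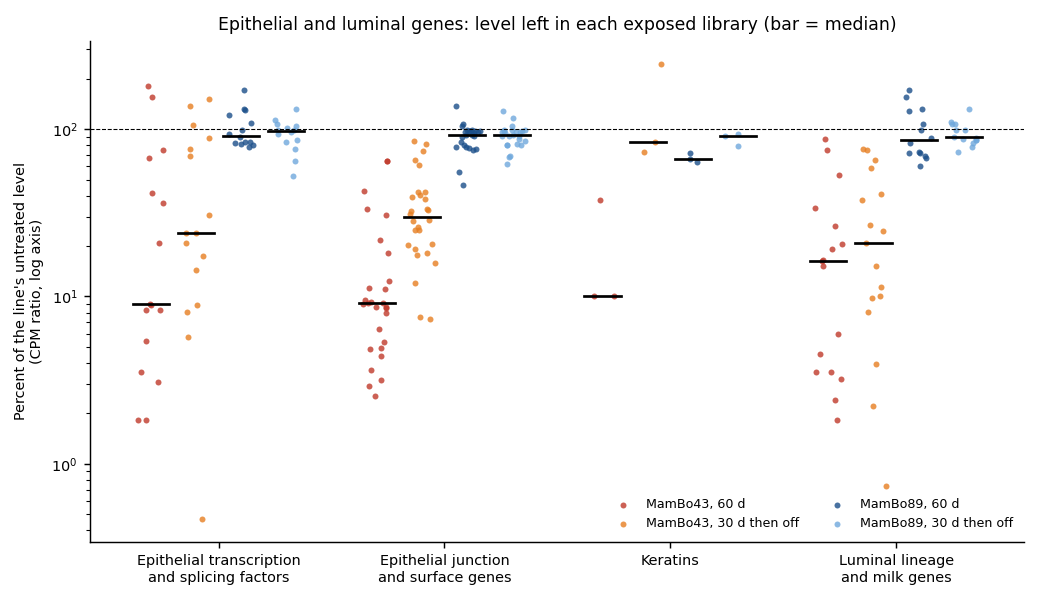
Points are genes at 20 CPM or more in the untreated library of both the line shown and MamBo43, grouped by list, and the y axis (log) is the percent of the line's untreated CPM found in each exposed library; black bars are medians and the dashed line is 100%. The MamBo89 medians lie between 66.6% and 97.1%, while those of the 60-day MamBo43 library lie between 8.98% and 16.2% and those of the drug-off library between 21.0% and 84.2%.

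On the log scale, Krt18 and Krt8 differed more between the 2 MamBo43 libraries than between the means of the lines. The MamBo43 libraries were at 109.9 and 913 CPM for Krt18 and at 64.4 and 470 CPM for Krt8. Neither was called (adjusted p = 0.578 and 0.168), and the direction for Krt18 reversed to 0.22 without the 60-day library. Krt15, a basal keratin, was by contrast prior, at 0.115 and 0.098 CPM against 39.5 and 69.9 CPM, with 0.391 CPM in untreated MamBo43.

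The letters CACCTG, read by Zeb and Snai factors, were counted on either strand (as CACCTG or CAGGTG) in the 250 bases before each RefSeq gene start of GRCm38.p6. They stood in 19.4% of all 27025 genes with a promoter in the reference table, in 23.5% of 2089 genes called lower in exposed MamBo43 and in 17.7% of 1895 called higher. Among epithelial genes (junction genes, epithelial factors and claudins), 16 of 46 with a promoter entry held them whether called or not (34.8%). Of the 38 called lower, 21 had an entry, which Cdh1, Esrp2, Grhl2 and Ehf did not, and 9 of the 21 held the letters (42.9%). No test was run, base composition was not matched, and a match is a description of letters and not of a bound site. Of these 9 genes, 5 held the letters more than once, and their promoters are shown from 5′ to 3′ in the direction of the gene, with each match in capitals and the last base lying next to the start, since they carry the densest matches; Ap1m2, Spint2 and Rab25 were chosen for them after their levels were known.
Epcam (chr17:87635729-87635978, plus strand): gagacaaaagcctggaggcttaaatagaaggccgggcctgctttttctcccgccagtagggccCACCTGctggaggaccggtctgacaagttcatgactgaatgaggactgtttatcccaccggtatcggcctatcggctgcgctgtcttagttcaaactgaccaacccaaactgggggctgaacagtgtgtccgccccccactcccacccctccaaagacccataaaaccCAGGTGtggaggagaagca
Ap1m2 (chr9:21312334-21312583, minus strand): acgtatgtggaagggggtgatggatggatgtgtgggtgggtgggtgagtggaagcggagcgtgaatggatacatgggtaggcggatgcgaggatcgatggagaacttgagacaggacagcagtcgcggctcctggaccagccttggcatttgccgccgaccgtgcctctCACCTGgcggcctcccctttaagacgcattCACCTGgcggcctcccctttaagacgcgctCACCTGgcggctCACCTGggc
Spint2 (chr7:29281978-29282227, minus strand): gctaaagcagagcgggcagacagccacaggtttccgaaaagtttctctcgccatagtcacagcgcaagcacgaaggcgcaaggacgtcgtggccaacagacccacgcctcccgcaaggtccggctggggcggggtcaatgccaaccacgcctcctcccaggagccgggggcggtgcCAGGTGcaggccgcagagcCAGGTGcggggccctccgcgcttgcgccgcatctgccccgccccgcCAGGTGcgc
Rab25 (chr3:88548280-88548529, minus strand): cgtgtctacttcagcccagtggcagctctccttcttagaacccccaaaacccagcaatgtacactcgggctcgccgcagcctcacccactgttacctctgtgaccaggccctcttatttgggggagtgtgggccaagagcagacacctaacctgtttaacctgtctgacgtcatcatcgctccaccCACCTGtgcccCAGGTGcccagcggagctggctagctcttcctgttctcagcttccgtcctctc
Elf5 (chr2:103411848-103412097, plus strand): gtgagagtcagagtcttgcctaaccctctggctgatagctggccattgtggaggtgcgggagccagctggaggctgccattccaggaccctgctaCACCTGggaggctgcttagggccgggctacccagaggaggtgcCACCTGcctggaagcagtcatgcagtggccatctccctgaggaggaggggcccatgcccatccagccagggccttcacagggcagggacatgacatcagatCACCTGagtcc
Ap1m2, a clathrin adaptor subunit of polarized epithelia, held 4 matches, starting 81, 51, 21 and 9 bases before the start. It was at 7.71 and 23.6 CPM in exposed MamBo43 and at 69.8 and 74.7 CPM in exposed MamBo89. Spint2, an inhibitor of membrane proteases, held 3 matches and was at 35.1 and 136 CPM against 371 and 346 CPM. Rab25, a small GTPase of epithelial recycling, held 2, as did Epcam, and was at 10.5 and 32.8 CPM against 81.9 and 101 CPM. Elf5, the factor that drives alveolar milk-gene programs, held 3 before the start shown (a second annotated start had none) and was at 0.575 and 0.147 CPM against 83.3 and 57.6 CPM. In all 5 genes both exposed MamBo43 libraries lay below both MamBo89 libraries, but they had been taken from genes called lower. The libraries of the lines did not overlap at 82.3% of all tested genes.

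EMT transcription factors were mostly higher in exposed MamBo43, 10 of 16 tested, with 3 lower and a median log2 fold change of 1.80. Zeb1 measured 54.2 and 47.5 CPM against 0.544 and 0.175 CPM, and 2.86 and 0.230 CPM in the untreated lines. Zeb2 measured 145 and 116 CPM against 0.653 and 1.46 CPM, and 3.76 and 0.645 CPM untreated. Both repressors thus differed before exposure at a low level, though by less than 2-fold against the AG3 library (1.80 and 2.68 CPM), and were far apart after it, with interactions of 3.51 (SE 0.97, adjusted p = 0.0822) and 4.43 (SE 0.72, adjusted p = 0.0311). Prrx1, a homeobox factor of mesenchyme, was at 103 and 76.4 CPM against 0 counts in both MamBo89 libraries, at least 532-fold higher, but already at 44.5 CPM in untreated MamBo43.

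The Snai and Twist families did not move as a block. Snai2 was higher (log2 fold change 3.52, adjusted p = 0.00528) at no more than 7.48 CPM, while Snai1 (-1.13, adjusted p = 0.0844) and Snai3 (-4.49, adjusted p = 0.00683) were lower, all 3 prior. Snai1 was called narrowly, with 12.5 and 12.1 CPM in MamBo43 against 38.6 and 14.9 CPM in MamBo89. Twist1 was at 48.9 and 41.4 CPM against 33.4 and 44.3 CPM, which overlap, and was not called. Sox9 was lower by -2.27 and arose.

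Mesenchymal cytoskeleton and adhesion genes were higher at 11 of 20 members and lower at 2, with a median log2 fold change of 2.81. Vim (vimentin, the intermediate filament of mesenchymal cells) was at 544 and 527 CPM in exposed MamBo43, 58.4 and 26.2 CPM in exposed MamBo89, and 25.9 and 45.3 CPM in the untreated lines. The AG3 library was at 90.0 CPM. The exposed MamBo43 libraries stood above all of these, with a log2 fold change of 3.65 (SE 0.42, adjusted p = 0.00203) and an interaction of 4.48 (adjusted p = 0.028). Acta2 (smooth muscle actin) was at 467 CPM in the 60-day and 69.1 CPM in the drug-off MamBo43 library, with 0 counts in both MamBo89 libraries and 1.29 CPM in untreated MamBo43. Cdh2 (N-cadherin), often named with E-cadherin as its mesenchymal counterpart, was instead lower in exposed MamBo43, at 13.6 and 8.04 CPM against 31.9 and 28.5 CPM (log2 fold change -1.48, SE 0.29, adjusted p = 0.00995), as was Itgb3 (-4.62, adjusted p = 0.00158), the beta chain of a vitronectin-binding integrin. Both of these arose.

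**Figure D4:**
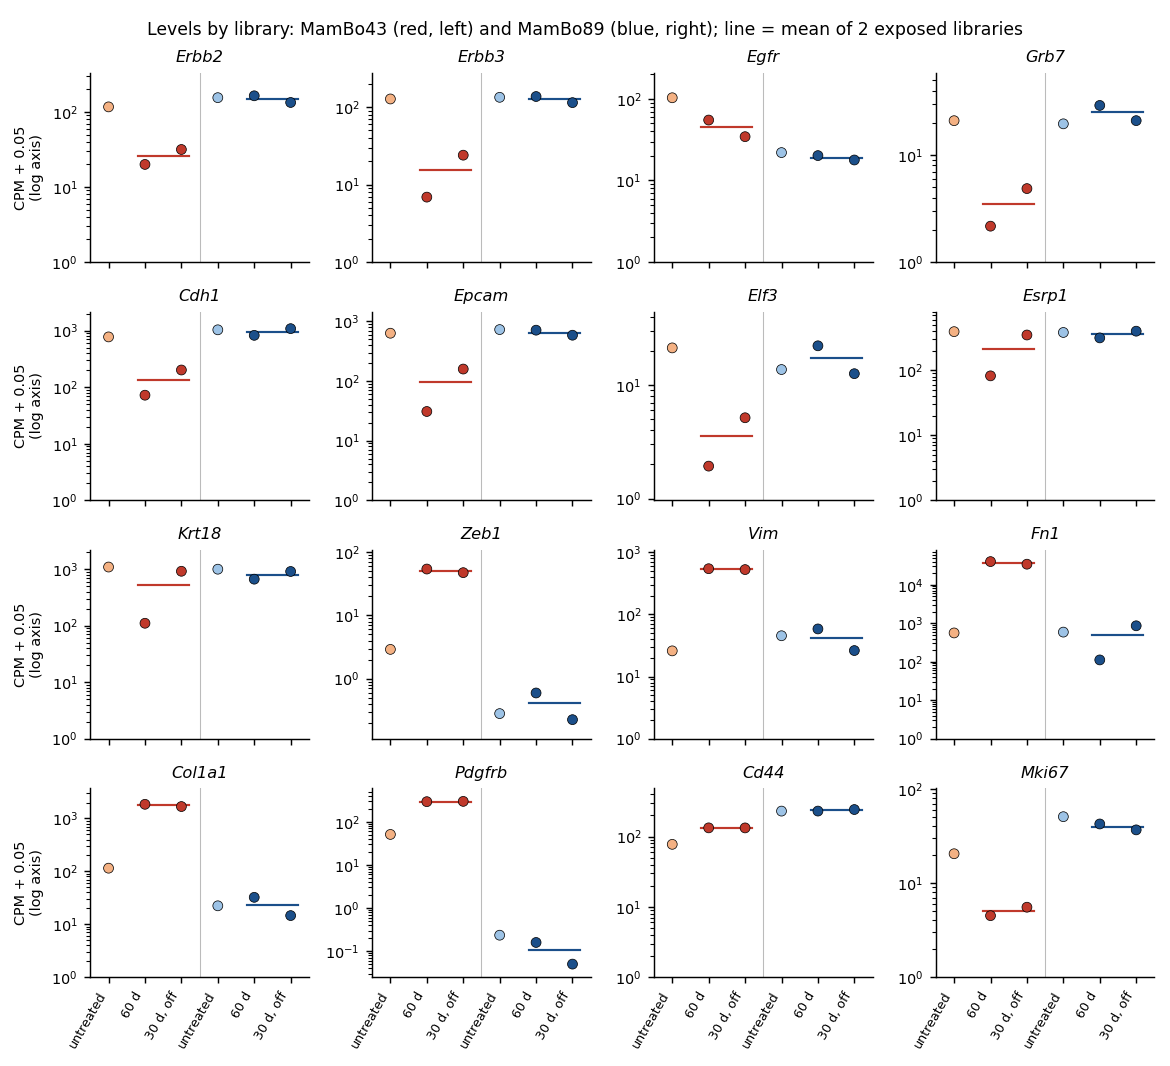
Each panel shows 1 gene, with CPM + 0.05 on a log y axis for the untreated, 60-day and drug-off libraries of MamBo43 (left, reds) and MamBo89 (right, blues) and a line at the mean of each exposed pair. Erbb2, Erbb3, Grb7, Cdh1, Epcam and Elf3 are low in exposed MamBo43 alone, Zeb1, Vim, Fn1, Col1a1 and Pdgfrb are high in it, Krt18 and Esrp1 split its 2 libraries, and Cd44 is lower in all 3 MamBo43 libraries than in any MamBo89 one.

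Extracellular matrix genes were nearly all on the MamBo43 side. Of 31 tested, 29 were higher in exposed MamBo43 and 0 lower, with 21 of the 29 prior, and the median log2 fold change was 6.23 against an untreated median of 2.59. In the other tests and settings tried, between 26 and 29 members were higher and no more than 1 lower. Of 14 matrix metalloproteinases and their inhibitors, 11 were higher and 2 lower, 8 of the 11 prior.

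Col1a2, a chain of type I collagen, measured 4958 and 4675 CPM in exposed MamBo43 against 0 and 0.117 CPM in exposed MamBo89, with 97.9 CPM in untreated MamBo43. Its partner chain Col1a1 was at 1853 and 1680.5 CPM against 32.2 and 14.5 CPM, and at 115 and 22.2 CPM untreated, with an interaction of 3.88 (SE 0.67, adjusted p = 0.0356). Both collagen chains were thus apart before exposure and more than 10 times as high in exposed as in untreated MamBo43. Dcn (decorin) was at 197 and 139 CPM against 0 counts in both MamBo89 libraries, at least 996-fold higher, and Vcan (versican) at 512 and 305 CPM against 1.03 and 1.28 CPM (log2 fold change 8.45, SE 0.39, adjusted p = 0.000342).

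Fn1 (fibronectin) was among the 6 matrix genes that arose. It reached 39853 and 34116 CPM in exposed MamBo43, while exposed MamBo89 held 111 and 857 CPM and the untreated lines were alike at 559 and 587 CPM, with 2261 CPM in the AG3 library. The log2 fold change was 6.26 (SE 1.07, adjusted p = 0.00636) and the interaction 6.34 (SE 1.63, adjusted p = 0.072). Mmp2 (gelatinase A) turned, from 8.53 CPM in untreated MamBo43 against 53.2 CPM in untreated MamBo89 to 528 and 383 CPM against 83.7 and 72.8 CPM. The AG3 library held 3.07 CPM of Mmp2, less than untreated MamBo43, and against it the difference was prior. Mmp14, the membrane protease that activates Mmp2, was at 269 and 221 CPM against 0 counts in both MamBo89 libraries, at least 1450.1-fold higher, but was at 359.9 CPM in untreated MamBo43 already.

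Fibroblast markers moved with the matrix genes. All 8 of 15 that were tested were higher in exposed MamBo43, and the summed level of the 15 was 7487 and 6974 CPM against 97.4 and 50.3 CPM, with 335 CPM in untreated MamBo43 and 60.6 CPM in untreated MamBo89. Other lists here hold 9 of the 15, Col1a2, Dcn and Pdgfrb among them. Fap, Pi16, Dpt, Col15a1, Dpp4, Meox2 and Lum were not tested, and Lum was at 0 counts in all 6 libraries. A gene could pass the count filter through exposed MamBo43 alone. For markers near 0 in exposed MamBo89, as for such matrix genes, higher was then the only call possible. The part of other cells in the matrix result was not tested.

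**Figure D5:**
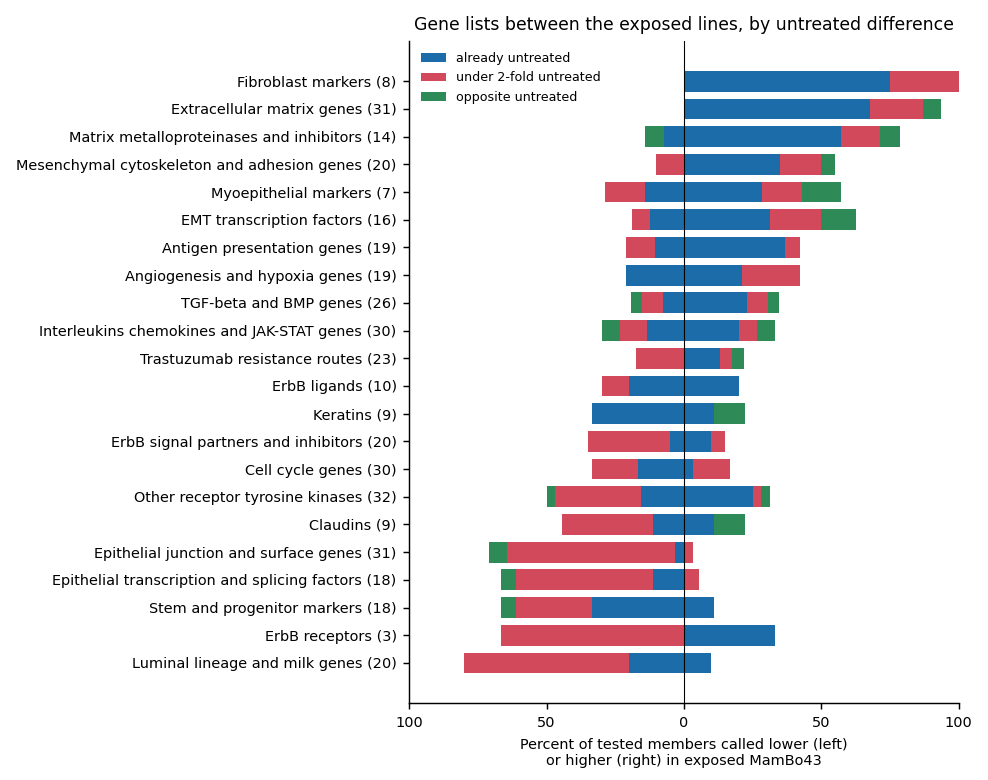
Bars give, for each gene list with at least 3 tested members (number in brackets), the percent of tested members called lower (left) or higher (right) in exposed MamBo43, split by whether the difference was prior (blue), arose (red) or turned (green). Higher calls of matrix, protease and receptor lists are mostly blue, and lower calls of epithelial, luminal and ErbB partner lists mostly red. Over all tested genes 19.4% were called higher and 21.3% lower. Of all called genes, 42.1% of the higher ones were prior and 58.4% of the lower ones arose.

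Luminal lineage and milk genes were lower in exposed MamBo43 at 16 of 20 members and higher at 2, with a median log2 fold change of -2.68, and 12 of the 16 arose. The list includes Sptan1, a spectrin of the membrane skeleton, among the lower members. Prlr, the prolactin receptor, was at 0.690 and 0.637 CPM against 36.1 and 64.3 CPM, with 28.8 and 59.6 CPM untreated. Foxa1, a pioneer factor of luminal cells, was at 0.652 and 2.89 CPM against 100.4 and 76.6 CPM, and 35.7 and 58.2 CPM untreated. Both were nearly silent in exposed MamBo43 and stayed at 60.5% or more of their untreated level in exposed MamBo89, with log2 fold changes of -6.23 (SE 0.40, adjusted p = 0.000551) and -5.69 (SE 0.64, adjusted p = 0.00199). Caseins were lower as well, Csn1s1 by -8.64, Csn3 by -7.80 and Csn2 by -6.83, all prior. Even so, the 60-day and drug-off MamBo43 libraries kept 3.56% and 0.733% of untreated Csn1s1, and 3.19% and 9.82% of Csn3. Those of MamBo89 kept 69.1% and 111% of Csn1s1, and 71.9% and 73.5% of Csn3. The signal transducer Stat5a was lower by -1.80 (adjusted p = 0.00671, edgeR). Mfge8, a milk fat globule protein, was at 302 and 513 CPM against 3024 and 2652 CPM. The progesterone receptor Pgr and the estrogen receptor Esr1 were the 2 members that were higher, but Pgr stood at 0.959 and 1.08 CPM in exposed MamBo43 against 27.3 CPM in the untreated line.

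Stem and progenitor markers were lower at 12 of 18 members and higher at 2. Cd44, a hyaluronan receptor used with CD24 to mark breast cancer stem cells, was at 133 CPM in both exposed MamBo43 libraries and at 231 and 243 CPM in exposed MamBo89, against 77.5 and 231 CPM untreated. Its difference of -0.84 (SE 0.14, adjusted p = 0.00592) was under 2-fold and not called. Cd24a turned, with 18.3 and 41.1 CPM against 92.3 and 66.8 CPM, and 342 and 97.5 CPM untreated (log2 fold change -1.43, adjusted p = 0.0314; interaction -3.22, adjusted p = 0.0538). Thus exposed MamBo43 had less Cd24a than exposed MamBo89, but not more Cd44. Ly6a (Sca-1) was lower at 77.1 and 54.9 CPM against 301 and 271 CPM, yet untreated MamBo43 held only 3.56 CPM against 302 CPM, so that the gap to this library was narrower after exposure (interaction 4.30, SE 0.39, adjusted p = 0.0126). Against the AG3 library, at 7.74 CPM, it was wider after exposure, a log2 difference of -2.12 against -1.10 untreated, and with AG3 added to the fit the interaction was not called (3.32, adjusted p = 0.365). Elf5 and Sox2 were among the lower members, Procr and Abcg2 the higher ones.

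The 10 genes with the strongest arising difference in each direction came from no single list. Among those higher in exposed MamBo43 were Ostn, Gask1b, Tenm2, Ly9, Apol11b, Ugt1a6b, Calhm5, Ank2 and Dppa2. Ostn (chr16:27307489-27351212, plus strand), which encodes the secreted peptide osteocrin, was at 147 and 111 CPM against 0 counts in both exposed MamBo89 libraries and 0.117 and 0.046 CPM untreated, at least 762-fold higher. Its interaction was 13.18 (SE 2.61, adjusted p = 0.0561). Tenm2 (chr11:36006656-37235964, minus strand), a teneurin adhesion protein, was at 227 and 169 CPM, with 1 count in all in exposed MamBo89 and 0 counts in both untreated libraries. Gask1b was at 139 and 32.0 CPM, and Ank2, which links membrane proteins to spectrin, at 77.6 and 70.0 CPM against 0.163 and 0.117 CPM. Ank2 was also at 21.9 CPM in the AG3 library of untreated MamBo89, so it was not specific to exposed MamBo43. Against the AG3 library, Ank2, Ly9 and Dppa2 had been lower in untreated MamBo43 and were turned, not arising. The Ugt1a6b level is uncertain, since 74.8% of its 75-base windows occur in transcripts of other genes.

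Lower with an arising difference were Kank4, Scml4, Mia, Rflna, Lef1, Zbtb16, Gabrp, Mboat2, Tc2n and Igfbp5. Kank4 (chr4:98754898-98817537, minus strand), a cytoskeletal adaptor, was at 0.384 and 0.098 CPM against 47.9 and 34.4 CPM, with 60.6 and 61.6 CPM untreated (log2 fold change -7.31, SE 0.50, adjusted p = 0.00064; interaction -7.27, adjusted p = 0.0126). Igfbp5, a secreted carrier of insulin-like growth factors, was at 77.2 and 16.1 CPM against 3094 and 5693 CPM, and at 12623 and 9814 CPM untreated (-6.56, SE 0.91, adjusted p = 0.00348). Lef1, a Wnt effector, was at 0.115 and 0.784 CPM against 40.7 and 24.4 CPM. Against the AG3 library, Scml4, Lef1, Zbtb16 and Igfbp5 had been higher in untreated MamBo43 and were turned, not arising. In each of these 10 genes all exposed MamBo43 libraries were below all exposed MamBo89 libraries, as the naming rule required.

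Prior differences were led by Ptx3, Col1a2, Acta2, Mmp14 and Trim35 on the higher side and Sez6, Pcdhgb6, Igf1, Pou2f3 and Bcl11a on the lower. Sez6, a neuronal membrane protein, was at 0 counts in both exposed MamBo43 libraries and at 93.6 and 97.9 CPM in exposed MamBo89, at least 731-fold lower, and at 0.274 CPM in untreated MamBo43. Igf1 was at 0.0384 and 0 CPM against 110.3 and 66.7 CPM, with 1.64 CPM in untreated MamBo43 and 71.5 CPM in untreated MamBo89, though only 4.19 CPM in the AG3 library. Trim35 was at 242 and 172 CPM against 0 counts, but at 1.56 CPM in untreated MamBo43, so most of its level was seen only after exposure.

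Taking genes that were on in one exposed line (at least 10 CPM) and at no more than 3 counts in both libraries of the other, 106 were on in MamBo43 and 25 in MamBo89. All 25 of the MamBo89 genes were also on in untreated MamBo89, and 11 of them were off in untreated MamBo43. Of the 106 MamBo43 genes, 31 were on and 11 off in untreated MamBo43, the rest lying between, and 89 were off in untreated MamBo89.

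Of 30 cell cycle genes, 10 were lower and 5 higher, 50% called against 40.6% over all genes. Mki67, the Ki-67 proliferation marker, was at 4.45 and 5.49 CPM against 42.5 and 36.8 CPM, with 20.5 and 50.8 CPM untreated (log2 fold change -3.00, SE 0.22, adjusted p = 0.000747; interaction -1.68, adjusted p = 0.0477, and -0.81, adjusted p = 0.5, with AG3 added). The mitotic kinase genes Aurkb (-2.53) and Bub1 (-2.04) were lower too. Cdkn1a (p21, an inhibitor of cyclin-dependent kinases) was higher, at 742 and 295 CPM against 68.6 and 86.2 CPM. Cdk4 was also higher, at 568 and 500.4 CPM against 145 and 176 CPM, as was Myc, at 411 and 377 CPM against 94.3 and 155 CPM. All 3 arose and passed the interaction test, with adjusted p of 0.0626, 0.0768 and 0.0402.

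Among 23 genes of proposed trastuzumab resistance routes, 5 were higher and 4 lower, 39.1% called against 40.6% over all genes. Muc4, a mucin that can mask HER2, was at no more than 0.049 CPM in the exposed libraries. Cav1 (caveolin) was at 158 and 129 CPM against 0 counts in exposed MamBo89 and was prior, with 32.0 CPM in untreated MamBo43. Gdf15, a stress cytokine, was at 322 and 130.1 CPM against 0.109 and 0.117 CPM, with 0.743 CPM in untreated MamBo43, and Il6 was at 40.0 and 13.5 CPM against 0.707 and 1.28 CPM. Untreated Il6 was at 0.196 CPM (5 counts) in MamBo43 and 0.737 CPM (16 counts) in MamBo89, which placed it among the turned genes, but at 0.0487 CPM in the AG3 library, against which it was prior. The interactions of Gdf15 and Il6 were 9.50 (adjusted p = 0.0468) and 6.64 (adjusted p = 0.0504), the latter 5.74 (adjusted p = 0.107) with AG3 added.

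Of 30 interleukin, chemokine and JAK-STAT genes, 10 were higher and 9 lower. Csf1, the macrophage growth factor, was at 2728 and 1717 CPM against 41.9 and 87.3 CPM (log2 fold change 5.10, SE 0.48, adjusted p = 0.00123). Stat3, which transmits the Il6 signal, was lower, at 257 and 255 CPM against 1071 and 832 CPM (-1.90, SE 0.20, adjusted p = 0.00158), so the ligand and its transducer were called in opposite directions. Ccl20 was lower by -5.31 and arose.

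Angiogenesis and hypoxia genes were higher at 8 of 19 members and lower at 4. Ptgs2 (cyclooxygenase-2) was at 901 and 639.8 CPM against 10.5 and 80.2 CPM, with 50.7 and 47.5 CPM untreated (log2 fold change 4.09, SE 0.94, adjusted p = 0.0159). Adm (adrenomedullin) was at 190 and 53.8 CPM against 1.58 and 1.05 CPM. Hif1a was higher by 1.42 (adjusted p = 0.00787), and Vegfa, at 467 and 439.6 CPM against 247 and 207 CPM, just missed the 2-fold limit at 0.99. Pgf, a relative of Vegfa, was lower by -8.41, prior, so the angiogenic ligands did not share a direction.

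Of 26 TGF-beta and BMP genes, 9 were higher and 5 lower. These counts were 7 and 2 with glmTreat against 2-fold and changed when single libraries were left out. Tgfb1 was at 43.9 and 41.5 CPM against 0.435 and 0.291 CPM, with 84.9 CPM in untreated MamBo43 (log2 fold change 6.84, SE 0.28, adjusted p = 0.000295), whereas Tgfb3 was lower at 25.5 and 31.1 CPM against 289 and 222 CPM after 665 CPM in untreated MamBo43 (-3.18, SE 0.22, adjusted p = 0.000645). Bmp4 was higher by 8.22, prior.

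Of 19 antigen presentation genes, 8 were higher and 4 lower, 7 of the 8 prior. B2m, the light chain of class I molecules, was the one that arose, at 1206 and 717 CPM against 229 and 243 CPM (log2 fold change 2.02, SE 0.28, adjusted p = 0.00351; interaction 1.98, adjusted p = 0.0635). Cd274 (PD-L1) was higher by 3.47, at 15.3 and 12.5 CPM against 0.816 and 1.69 CPM, and H2-K1 was under 2-fold at 0.80.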

How the data were processed

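RNA from cultured mouse MamBo cells was sequenced (unstranded TruSeq kit, 75 nucleotides, single-end). The deposited table holds expected counts per mouse gene for 11 libraries, not normalized, which the authors made with STAR 2.5 and RSEM 1.3.0 on mm10 per the submitters' processing notes. All values were whole, so nothing was rounded. The annotation release is not given in the sources used here. Reads of antisense or overlapping genes cannot be told apart.

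In R 4.3.3, genes were kept by filterByExpr of edgeR 4.0.16 (minimum count 10, minimum total 15), scaled by TMM and tested with the quasi-likelihood test, adjusted by the Benjamini-Hochberg method and called at an adjusted p under 0.1 and a log2 fold change of at least 1, after the study's thresholds; fitted log2 fold changes used a prior count of 0.125. SE is the absolute log2 fold change over the square root of F. Exposed MamBo43 (n = 2) was compared with exposed MamBo89 (n = 2), and the interaction fit had 6 libraries. The paired libraries of a line differ in schedule and nothing says that they are separate experiments, so p-values measure the spread between these libraries. Untreated differences are log2 CPM with a prior count of 2, past 1 for a 2-fold difference. A gene whose group had 0 counts was given a fold against 3 counts per library, and floors cover counting error only. Lists are described by counts and medians, without a set test. Total counts per library ranged from 17040454 to 26853067 in the exposed libraries.

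Named genes were, among called and non-overlapping genes of at least 10 CPM, 10 per direction that arose and 5 per direction that were prior, 5 per direction in the interaction, and of each list the key genes and up to 3 called members per direction; predicted genes were left out, and a few genes the rule takes are not reported here. The groups compared, the lists and the rules were chosen with earlier results of these data known. Alternatives were DESeq2 1.42.0, RLE size factors, no filter, the schedule as a covariate, all 11 libraries, an adjusted p under 0.05, glmTreat, leaving out each library, the AG3 library, and other thresholds and prior counts for classes. The fits were tested on simulated data first. Coordinates are from GENCODE M21 on GRCm38 (199 of 199 named genes matched by identifier) and promoters from RefSeq (GRCm38.p6).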

Additional observations from a re-analysis of the deposited data

Results flagged for a closer look

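The change under trastuzumab differed between MamBo43 and MamBo89 at 2380 genes by the interaction test of edgeR, and given here with their log2 interaction, positive where MamBo43 gained on MamBo89, are genes of the steepest interactions and key genes of the lists. Other genes named above passed too, among them Igfbp5 (-6.91), Elf5 (-6.00), Csn1s1 (-5.30), Foxa1 (-4.97), Adm (5.69) and Csf1 (3.57). With the AG3 library added, 16 of 85 named genes no longer passed, Mmp2, Mmp14, Ly6a, Il6, Trp63, Cdh2, Dusp6, Il1rn, Mki67 and Atp6v1b1 among them. Each untreated level is 1 library. At 77 of the 2380 genes 1 of the 4 groups had 0 counts, so the fitted value depends on the prior count and is no bound; Mmp14, Ostn, Gpnmb, Plbd1 and Pou2f3 are of this kind.

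Among genes of at least 10 CPM, large gains over the untreated difference were those of Ostn (13.18), Car6 (9.78), Gpnmb (9.78) and Gdf15 (9.50). Car6, a secreted carbonic anhydrase, had been higher in MamBo89. Car6 was at 0.509 CPM in untreated MamBo43 against 23.6 CPM in untreated MamBo89, and at 292 and 212 CPM against 12.5 and 13.9 CPM after exposure. It therefore turned, and the AG3 library of untreated MamBo89 held 4.53 CPM of it. Gpnmb, a glycoprotein of pigment and bone cells, was at 44.6 and 33.7 CPM in exposed MamBo43, 0 counts in exposed MamBo89 and 0.391 CPM in untreated MamBo43.

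Losses were largest in Plbd1 (-10.86), Atp6v1b1 (-8.09), Pou2f3 (-7.62), Esrrg (-7.49) and Kank4 (-7.27). Of these 5 genes, 3 had been on in untreated MamBo43 and at no more than 1.57 CPM in the untreated and exposed MamBo89 libraries: Atp6v1b1, a subunit of the proton pump, was at 106 CPM, Plbd1 at 19.5 CPM and Esrrg, an orphan nuclear receptor, at 16.6 CPM, and exposed MamBo43 held no more than 0.345 CPM of any of them. The AG3 library held 11.1 CPM of Atp6v1b1. All 3 were too low in both exposed lines to be tested between them.

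Matrix and mesenchymal genes that gained were Fn1 (6.34), Vcan (5.81), Mmp14 (5.26), Mmp2 (5.19), Igfbp4 (5.11), Vim (4.48), Zeb2 (4.43), Col1a1 (3.88) and Zeb1 (3.51), with the receptors Ddr2 (9.03) and Pdgfrb (4.16). Cytokine, growth and other genes that gained were Il6 (6.64), Ly6a (4.30), Cldn1 (4.21), Cdkn1a (3.22), Myc (2.45), B2m (1.98), Trp63 (1.54), Vegfa (1.29) and Cdk4 (1.17). Exposed MamBo43 itself held less Mmp14 than its untreated library, 269 and 221 CPM against 359.9 CPM, so that interaction rests on 0 counts in exposed MamBo89 against 0.322 CPM in the untreated line.

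Among the key epithelial and luminal genes that lost were Prlr (-5.17), Ehf (-3.82), Mfge8 (-3.37), Cd24a (-3.22), Elf3 (-2.95), Jup (-2.85), Esrp2 (-2.46), Notch1 (-2.38) and Stat5a (-1.90). Signalling and other genes that lost were Kit (-3.91), Grb7 (-2.96), Il1rn (-2.42), Erbb2 (-2.12), Cdh2 (-2.05), Dusp6 (-1.78), Mki67 (-1.68) and Igf1r (-1.44). Ehf, an Ets factor of epithelia, had been higher in untreated MamBo43 (306 against 49.1 CPM) and was lower after exposure (10.8 and 17.5 CPM against 38.6 and 25.8 CPM).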

How the results depend on the processing

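Calls between the exposed lines ranged from 3476 with glmTreat against 2-fold to 5566 with all 11 libraries, around 5156, and from 4429 to 5416 when a library was left out, all within 1.5 times. The interaction depended more on the setting, with 955 genes at an adjusted p under 0.05 against 2380, and from 423 to 3751 with a library left out. With the AG3 library as a second untreated MamBo89 library it gave 1633. Arising differences numbered 1653 with glmTreat against 2843, and turned ones 185 with glmTreat, 528 when a 1.5-fold untreated difference was enough and 560 with AG3 as the untreated MamBo89 library, against 311. Among 184 named genes tested between the exposed lines, the direction reversed in 5 cases, each with a library left out and none of them called. With a library left out the log2 fold change ran from -0.58 to 1.62 for Cldn7, which was under 0 without the drug-off MamBo43 library, from -2.8 to 0.22 for Krt18, which reversed without the 60-day MamBo43 library, from -2.92 to 1.86 for Areg, which reversed without that library and without the drug-off MamBo89 library (0.66 and 1.86), and from -1.19 to 0.21 for Socs3, which reversed without the 60-day MamBo89 library. The cause was not tested. The labels give no replicate numbers, and with the libraries paired across lines by schedule, as a covariate, 5106 genes were called. Depth limits genes under about 3 counts, and the single untreated library of each line limits the classes.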

Other observations

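Claudins, the strand proteins of tight junctions, did not share a direction. Of 9 tested, 4 were lower in exposed MamBo43 and 2 higher. Cldn3 was lower at 13.6 and 56.2 CPM against 191 and 159 CPM, and Cldn23 at 0.0767 and 0.147 CPM against 5.49 and 5.30 CPM, and both arose. Cldn1 was higher at 7.40 and 3.72 CPM against 0.381 and 1.34 CPM, having been lower untreated (0.548 against 1.57 CPM). Cldn10 stood at 269.9 CPM in untreated MamBo43 and at 3.45 and 6.86 CPM after exposure, against 0 counts in exposed MamBo89, so it was called higher while most of its level was gone. Cldn7 showed the same course without a call, at 246 CPM in untreated MamBo43 and 9.13 and 42.8 CPM after exposure, against 12.1 and 15.8 CPM.

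Keratins gave 2 higher and 3 lower of 9 tested, but 0 higher and 2 lower at an adjusted p under 0.05. The higher calls also depended on each MamBo89 library. Of 7 myoepithelial markers tested, 4 were higher and 2 lower, with Krt14 at 111 CPM in the 60-day and 9.90 CPM in the drug-off MamBo43 library and Krt5 at 3.84 and 0.049 CPM. Immune markers had 1 tested member, Cd68, which was lower at 4.41 and 3.67 CPM against 8.32 and 16.7 CPM, and summed to 4.72 and 4.21 CPM in exposed MamBo43 against 9.47 and 17.1 CPM. Of 10 endothelial markers none had enough counts for a test. Among 10 adipocyte markers 1, Fabp4, was tested and called higher at 2.65 and 0.784 CPM, with Adipoq at no more than 0.0384 CPM. The Fabp4 call was lost at an adjusted p under 0.05 and without the drug-off MamBo89 library.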
